A study of Homo sapiens with 4 samples.

Results

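The miRNAs described here come from 1 cluster of hairpins on chromosome X, miR-532, miR-188, miR-362, miR-501 and miR-660, which lies in an intron of CLCN5. They were chosen by name and location, as 7 of the 2366 human miRNA rows: hsa-miR-532-5p, hsa-miR-532-3p, hsa-miR-188-5p, hsa-miR-362-5p, hsa-miR-362-3p, hsa-miR-501-3p and hsa-miR-660-5p (hsa, human, is left off below). All 7 passed the filter on low counts. Another 7 rows name miRNAs of the same cluster, and 5 of these passed, so 12 cluster miRNAs were among the 464 tested. Small RNAs were sequenced from K562-dCas9-KRAB cells, a human chronic myeloid leukaemia line that carries an inactive Cas9 fused to the KRAB repressor. Each of 2 guide RNAs against ERH had its own doxycycline-inducible polyclonal line. ERH knockdown cells received 0.05 µg/ml doxycycline and control cells of the same line received none, both until day 5. This gave 2 libraries per group, 1 per guide RNA, with no second culture of a line.

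A miRNA is cut from its primary transcript as a hairpin by the Microprocessor (DROSHA with DGCR8), and Dicer then splits the hairpin into a 5p and a 3p arm. ERH is a small protein that binds DGCR8, and the series title states the question of whether a poor hairpin is helped by a neighbour in its cluster through ERH. The ratio of 2 neighbours within a library sets aside how deeply the library was read. Where the neighbours leave 1 primary transcript, it also sets aside how much of that was made. Whether the hairpins of this cluster do so was not tested. CLCN5, the host gene, encodes an endosomal chloride/proton exchanger.

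In GENCODE 29 (GRCh38) the cluster spans 11536 bases of chromosome X, 50003148-50014683, on the plus strand, and each of its 8 hairpins lies inside 3 CLCN5 transcripts without touching an exon of them. The order is MIR532, MIR188, MIR500A, MIR362, MIR501, MIR500B, MIR660 and MIR502. MIR532 (50003148-50003238) and MIR188 (50003503-50003588) form a pair 265 bases apart. A gap of 4843 bases then leads to MIR500A, and MIR362 (50008964-50009028), MIR501 (50009722-50009805) and MIR660 (50013241-50013337) follow at 5816, 6574 and 10093 bases from the MIR532 start.

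The mature sequences below are from RefSeq (GRCh38.p14), 5′ to 3′, with the seed (bases 2 to 8, which pair with targets) in capitals. They are shown because the hairpins are related in sequence, which bears on how reads can be told apart and on which miRNAs share targets. Of the 7 members 6 matched an entry, and miR-660-5p is named only.
miR-532-5p: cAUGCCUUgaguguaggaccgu
miR-188-5p: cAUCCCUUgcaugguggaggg
miR-532-3p: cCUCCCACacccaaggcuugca
miR-188-3p: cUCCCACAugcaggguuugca
miR-362-5p: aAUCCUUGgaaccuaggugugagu
miR-362-3p: aACACACCuauucaaggauuca
miR-501-3p: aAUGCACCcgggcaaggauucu
miR-502-3p: aAUGCACCugggcaaggauuca
miR-500a-3p: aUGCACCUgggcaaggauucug
No 2 of the 6 printed members share a seed. miR-501-3p has the seed of miR-502-3p, and these differ at 2 bases, C9U and U22A, counted from the 5′ end of miR-501-3p. miR-500a-3p starts 1 base later and differs from miR-501-3p at C9U over the 21 bases they share. Reads of these 3 can therefore be hard to separate. miR-502-3p had no row in the counts used here, so the values of miR-501-3p and miR-500a-3p are uncertain to that extent. miR-532-5p and miR-188-5p, from adjacent hairpins, are identical at 14 of 21 aligned bases, and their 3p arms at 17 of 21.

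The 2 adjacent hairpins are shown whole, as RNA from RefSeq with the mature arms in capitals, because their miRNAs went apart after knockdown. MIR532 is chrX:50003148-50003238 and MIR188 chrX:50003503-50003588, both on the plus strand.
MIR532: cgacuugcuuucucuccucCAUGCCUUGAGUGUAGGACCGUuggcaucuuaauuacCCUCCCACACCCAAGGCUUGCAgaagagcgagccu
MIR188: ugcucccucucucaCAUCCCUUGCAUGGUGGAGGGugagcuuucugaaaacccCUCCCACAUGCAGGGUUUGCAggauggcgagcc
The hairpins are identical at 61 of 84 aligned bases. The predicted fold energy was -30.8 kcal/mol for MIR532 (91 bases) and -38.6 for MIR188 (86 bases). Per base this is -0.34 for MIR532, where 14.9% of 1562 RefSeq hairpins were less stable, and -0.45 for MIR188, where 48.8% were. MIR660, whose miRNAs did not pass the test, had the same -0.34 per base as MIR532, and MIR362 had -0.48. The annotated ends differ between hairpins, which affects these energies. Of the bases in the mature arms, 25.0% were unpaired in MIR532 and 23.8% in MIR188, against a median of 15.9% over 739 hairpins with both arms annotated. MIR500A, whose miRNAs did not pass the test, had more, at 26.7%, and MIR502, MIR500B and MIR362 had 18.6%, 15.8% and 13.0%. MIR501, the source of miR-501-3p, matched no hairpin entry and was not folded, and MIR660 has no value for unpaired bases. Both hairpins have the letters UG, searched on the RNA strand only, starting 14 bases before the 5p arm, as do 20.3% of 261 hairpins with that much annotated sequence.

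The libraries held 1430434 to 2476700 miRNA reads, and 0 reads of a miRNA allow up to 3 reads, or 1.21 to 2.10 CPM (counts scaled to a common library total). This limit uses library totals alone, whereas the CPM levels below are also scaled between libraries by TMM. Erythroid miRNAs, which K562 cells express, summed to 42353 and 42611 CPM after knockdown and 44092 and 45599 in controls (miR-144-3p, miR-451a and miR-486-5p, all 3 detected). Within that sum miR-144-3p rose, at 15828 and 14824 CPM with knockdown against 9143 and 9243, and miR-451a fell, at 20370 and 21087 CPM against 28639 and 29336 (edgeR, both called). Of 5 miRNAs of other cell types 4 had a row and summed to 71.2 and 78.6 CPM after knockdown and 56.3 and 58.4 in controls, nearly all of it epithelial miR-200c-3p, while neuronal miR-124-3p had 0 reads in 3 libraries and 1 in the other. ERH mRNA is not part of these small-RNA counts, so the depth of knockdown was not checked, and cells given doxycycline without an ERH guide RNA were not analysed here.

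Both arms of miR-532 fell after ERH knockdown, while 0 of the other 10 tested miRNAs of the cluster fell (0 at an unadjusted p under 0.05 in edgeR, and 0 called by DESeq2). With RLE size factors, another scaling between libraries, 1 of them fell, miR-362-5p (-0.18). Of all 464 tested miRNAs 25.2% fell in the main test. miR-532-5p was 1.74-fold lower and miR-532-3p 1.67-fold lower. miR-188-5p, from the hairpin next to it, rose 1.19-fold and miR-501-3p rose 1.22-fold, whereas miR-362-5p, miR-362-3p and miR-660-5p did not pass the test. Neither of these rises was called by DESeq2 or with RLE size factors. CPM here are scaled between libraries by TMM, which sets the bulk of miRNAs level, so "rose" and "fell" are relative to that bulk.

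hsa-miR-532-5p, reported to target the transcription factor RUNX3, was read 575 and 669 times after knockdown with guide RNAs 1 and 2 and 449 and 921 times in the matching controls. Scaled, this was 218 and 244 CPM after knockdown against 356 and 444 CPM in controls. The groups did not overlap, and the controls differed from each other more than the knockdown libraries did. The log2 fold change was -0.80 ± 0.10 (SE, 2 libraries per group; edgeR quasi-likelihood test, Benjamini-Hochberg adjusted p = 1.08e-05), with -0.70 within guide RNA 1 and -0.86 within guide RNA 2. The other arm of the hairpin, hsa-miR-532-3p, gave 808 and 894 reads with knockdown, against 678 and 1078 in controls. This was 307 and 326 CPM against 538 and 520 CPM, so the knockdown libraries lay well below both controls. Its log2 fold change was -0.74 ± 0.08 (edgeR, adjusted p = 1.07e-06), with -0.81 and -0.67 within guide RNAs 1 and 2. Of all 464 tested miRNAs 25.2% fell by this test, and 8.62% had a lower log2 fold change than miR-532-3p. A called fall was thus common in these libraries, and a fall of this size less so. Spike-in scaling ended both calls, at -0.11 ± 0.37 and -0.04 ± 0.37. Library size alone left both called, at -0.36 and -0.30.

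**Figure D1:**
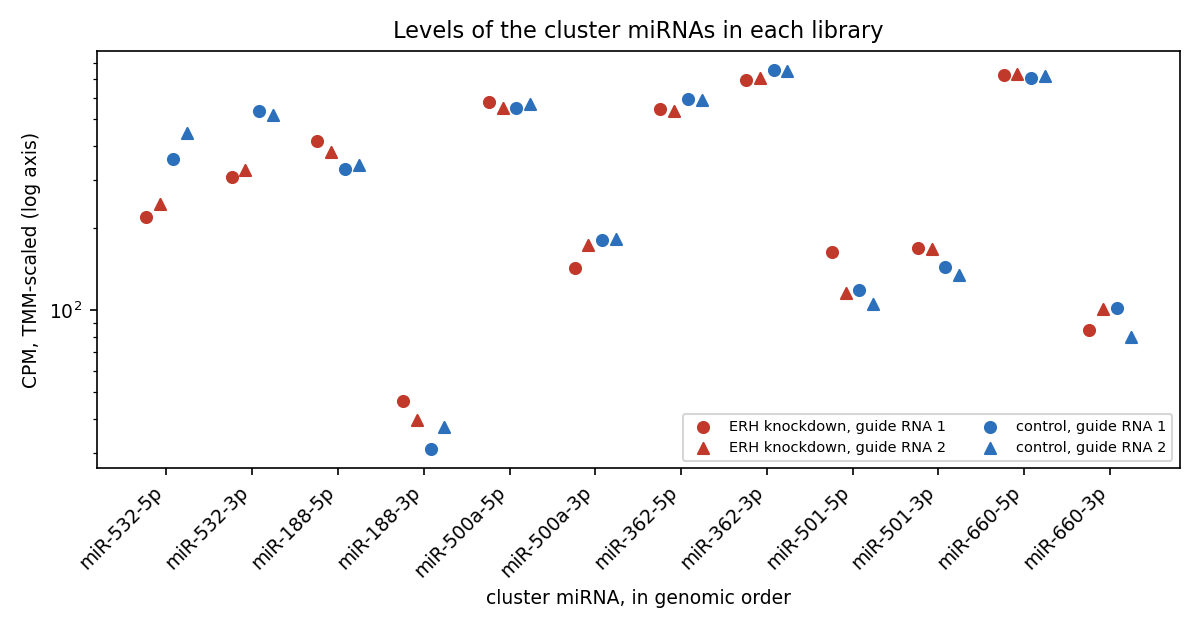
TMM-scaled CPM (log axis) of the 12 tested cluster miRNAs in genomic order, 1 point per library, knockdown in red and control in blue, circles for guide RNA 1 and triangles for guide RNA 2. Both miR-532 arms are lower in the 2 knockdown libraries (218 to 326 CPM) than in the controls (356 to 538 CPM), and most other points of 1 miRNA lie close together.

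hsa-miR-188-5p, known for steering marrow stromal cells between bone and fat, gave 1097 and 1038 reads with knockdown, against 415 and 703 in controls. Its levels were 417 and 379 CPM after knockdown and 329 and 339 CPM in controls, so the groups did not overlap although the gap was small. Knockdown libraries both lay above both controls for 41.4% of all tested miRNAs. Its log2 fold change was 0.25 ± 0.08 (edgeR, adjusted p = 0.0194), with 0.34 and 0.16 within guide RNAs 1 and 2. It was not called by DESeq2 or with RLE size factors (0.20 in each), nor without knockdown replicate 1 (0.17), control replicate 1 (0.22) or control replicate 2 (0.25). The scarcer arm miR-188-3p had 39 to 122 reads per library and a log2 fold change of 0.30 ± 0.18, which did not pass (edgeR, adjusted p = 0.164).

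hsa-miR-501-3p, a regulator of the AMPA receptor subunit GRIA1 in neurons, gave 446 and 458 reads with knockdown, against 181 and 278 in controls. This came to 169 and 167 CPM after knockdown and 144 and 134 CPM in controls, without overlap. Its log2 fold change was 0.28 ± 0.10 (edgeR, adjusted p = 0.0283), with 0.24 and 0.32 within the 2 guide RNAs. With guide RNA as a block it was 0.28 and not called (adjusted p = 0.0553), and it was not called without knockdown replicate 1 (0.26), knockdown replicate 2 (0.29) or control replicate 2 (0.21). DESeq2, RLE size factors (0.23 in each) and fitting with no low-count filter (0.30) also ended the call. Over all tested miRNAs 25.6% rose, against 2 of the 10 cluster miRNAs outside miR-532.

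The members in the middle and at the far end of the cluster differed little between groups. hsa-miR-362-5p, reported to target the deubiquitinase CYLD, was at 543 and 536 CPM after knockdown and 592 and 587 CPM in controls. Both knockdown libraries lay below both controls, as they did for 34.9% of all tested miRNAs, and the log2 fold change of -0.13 ± 0.07 did not pass (edgeR, adjusted p = 0.133). With RLE size factors it passed, at -0.18. The other arm, miR-362-3p, was the most abundant cluster miRNA in controls, with 759 and 748 CPM there and 697 and 707 CPM after knockdown. Its log2 fold change was -0.10 ± 0.07 (edgeR, adjusted p = 0.21). With library size alone both arms had positive values that passed (0.31 and 0.34). Spike-in scaling gave positive values, 0.56 and 0.59, that did not pass. hsa-miR-660-5p, reported to target MDM2, lies 10093 bases from the MIR532 start and gave 1913 and 2000 reads with knockdown, against 893 and 1492 in controls. It was at 727 and 730 CPM after knockdown and 708 and 720 CPM in controls, a log2 fold change of 0.03 ± 0.07 (edgeR, adjusted p = 0.739). It passed with library size alone, at 0.47, and was slightly negative with RLE size factors and with DESeq2, at -0.02 in each.

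The other rows of the cluster belong to miR-500a, miR-501, miR-660, miR-500b and miR-502. miR-500a-5p was at 578 and 549 CPM after knockdown and 549 and 569 CPM in controls (log2 fold change 0.01 ± 0.07), with overlapping groups. miR-500a-3p stood at -0.20 ± 0.11, miR-501-5p at 0.33 ± 0.15 and miR-660-3p at 0.06 ± 0.14, and none of these 4 passed (edgeR, adjusted p = 0.914, 0.143, 0.0772 and 0.739). miR-501-5p passed without knockdown replicate 2, at 0.55. It also passed with no low-count filter (0.34), with library size alone (0.77) and with spike-ins (0.98). miR-660-3p and miR-500a-5p had opposite signs within the 2 guide RNAs (-0.26 and 0.34, and 0.08 and -0.05), as 17.9% of all tested miRNAs did. miR-500b-3p and miR-502-5p had 0 or 1 read in each library, at or under the limit that 0 reads allow. miR-500b-5p had no row in the counts used here.

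**Figure D2:**
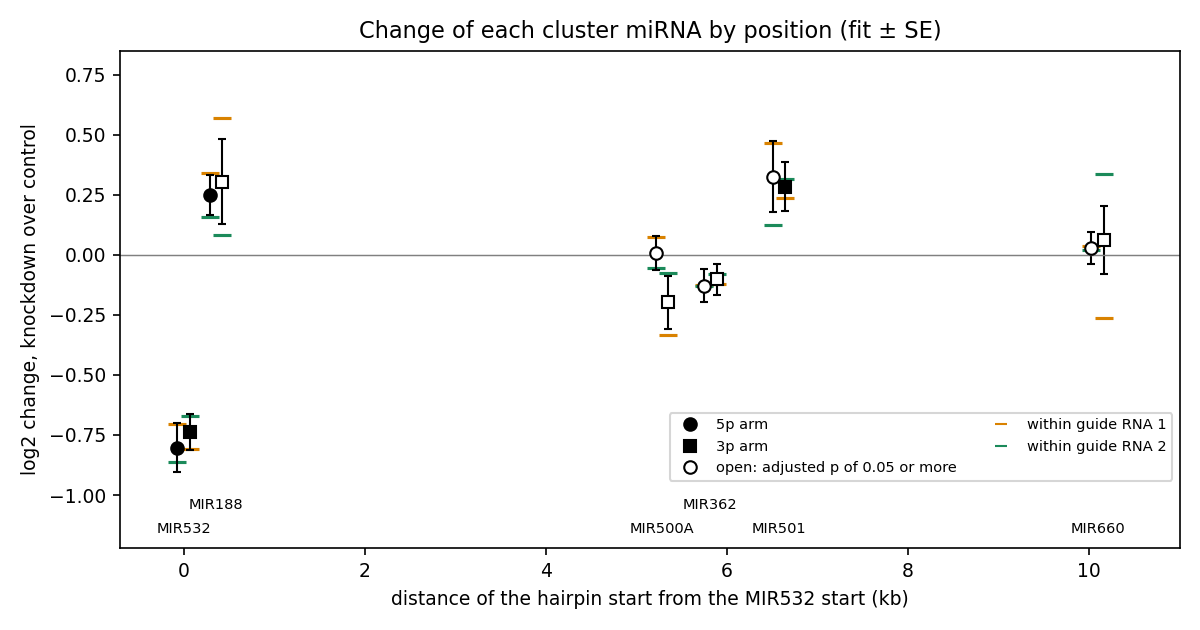
Log2 change of knockdown over control (fit ± SE) for the 12 tested cluster miRNAs against the distance of their hairpin from the MIR532 start in kilobases. Circles are 5p arms, squares 3p arms, filled symbols passed the test, and dashes are the values within each guide RNA. The 2 points of MIR532 lie at -0.80 and -0.74, those of MIR188, the nearest hairpin, at 0.25 and 0.30, and no other point is below -0.20.

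By position, the fall was found in the first hairpin and not in the second, which starts 355 bases from it. Over the 12 tested cluster miRNAs 2 rose, 2 fell and 8 did not pass, and their median log2 fold change was 0.02, against 0.06 over all 464 tested, of which 50.9% were called. The first and second hairpins gave the lowest arms and 2 of the 4 highest values of the cluster, so there was no steady trend with distance in either direction. Leaving out miR-532, the summed level of the cluster was 3569 and 3497 CPM after knockdown and 3512 and 3503 CPM in controls. The ratio of the group means of this sum was 1.01. As a share of all miRNA reads with no scaling, the whole cluster took 0.484% and 0.465% after knockdown and 0.388% and 0.374% in controls. With library size alone the typical miRNA was higher after knockdown too, with a median log2 fold change of 0.50 over all 464 tested.

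The order of levels within the cluster also differed. In controls the 5 highest means were miR-362-3p (753 ± 7.90 CPM, SD, n = 2), miR-660-5p (714 ± 8.21), miR-362-5p (590 ± 3.73), miR-500a-5p (559 ± 14.5) and miR-532-3p (529 ± 12.5), with no overlap between neighbours in this order. miR-532-5p (400 ± 62.4) and miR-188-5p (334 ± 7.10) came next. After knockdown miR-188-5p, at 398 ± 26.7 CPM, stood above miR-532-3p (317 ± 13.7) and miR-532-5p (231 ± 18.2), without overlap. miR-660-5p (729 ± 2.42) stood above miR-362-3p (702 ± 7.37), while miR-500a-5p (563 ± 20.9) and miR-362-5p (540 ± 5.17) followed. One read stands for 1 miRNA of 21 to 24 bases, so these levels need no length scaling, although ligation and amplification favour some sequences and the order between miRNAs is that of reads.

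Ratios within a library, which no scaling can change, give the same difference between miR-532 and its neighbours from the same counts. Reads of miR-188-5p per read of miR-532-5p were 1.91 and 1.55 after knockdown and 0.924 and 0.763 in controls. miR-532-5p was thus the more abundant of this pair in both controls and the less abundant in both knockdown libraries. The mean ratio in knockdown libraries, 1.73 ± 0.252 (SD, n = 2), was 2.05-fold that in control libraries, 0.844 ± 0.114. Its log2 change was 1.05 within guide RNA 1 and 1.02 within guide RNA 2, with counting errors of 0.12 and 0.10 (SE, counting only). With miR-532-3p below the line, reads of miR-188-5p were 1.36 and 1.16 per read after knockdown and 0.612 and 0.652 in controls.

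The ratio to miR-532-5p of each member from the other hairpins was higher in both knockdown libraries than in both controls. So were 82.1% of the ratios to miR-532-5p over all 463 other tested miRNAs. For miR-501-3p it was 0.776 and 0.685 after knockdown and 0.403 and 0.302 in controls, 2.07-fold higher by the means. For miR-660-5p it was 3.33 and 2.99 against 1.99 and 1.62, or 1.75-fold. The ratios of miR-362-5p rose from 1.66 and 1.32 to 2.49 and 2.19, and those of miR-362-3p from 2.13 and 1.68 to 3.19 and 2.90, which is 1.57-fold and 1.60-fold. Among the members, the change was thus largest for the hairpins MIR188 and MIR501 and smallest for MIR362, which lies between them. The exact permutation test of 2 libraries against 2 gave a two-sided p of 0.33 for each of these ratios, the smallest it can give.

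In a fit over the ratios of all other tested miRNAs to miR-532-5p (limma on log2 ratios), all 10 cluster miRNAs outside miR-532 rose, and miR-532-3p did not pass (0.04 ± 0.23). Their changes ran from 0.58 ± 0.24 for miR-500a-3p to 1.11 ± 0.28 for miR-188-3p (log2, SE; limma, adjusted p = 0.0275 and 2.08e-04), with 1.03 ± 0.23 for miR-188-5p and 0.81 ± 0.23 for miR-660-5p. Against this background, 66.7% of 463 miRNAs rose and 2.16% fell against miR-532-5p, 82.1% had ratios without overlap in that direction, and the median change was 0.83 over all of them and 0.81 over the 11 cluster miRNAs. The neighbours of miR-532 therefore differed from it about as the typical miRNA of these cells did. All these ratios share the reads of miR-532-5p, whose own spread enters every one of them, so their adjusted p-values are too small. Without knockdown replicate 1 the log2 changes of the 10 ran from 0.57 to 0.97, and without knockdown replicate 2 from 0.52 to 1.41. Leaving out either knockdown library ended most or all of the 10 calls, in fits with 1 knockdown library left.

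**Figure D3:**
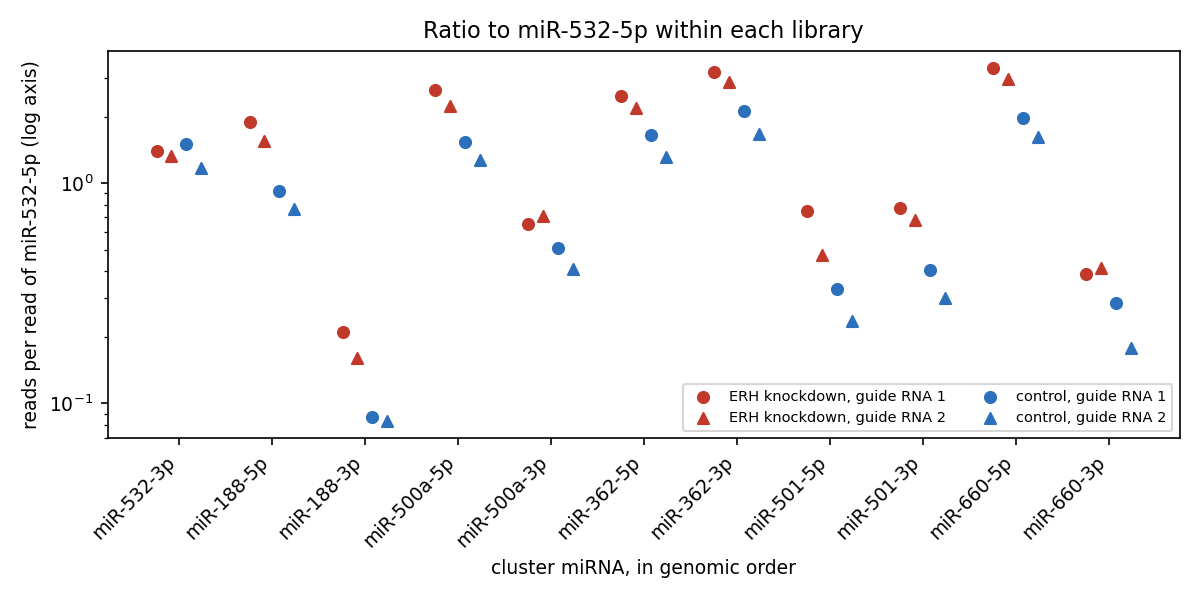
Reads of each cluster miRNA per read of miR-532-5p (log axis), 1 point per library, with knockdown in red and control in blue. The 4 libraries are mixed for miR-532-3p (1.17 to 1.51). For miR-188-5p the knockdown libraries (1.91 and 1.55) lie above the controls (0.924 and 0.763), as they do for the other miRNAs shown. Over all 463 ratios to miR-532-5p, 82.1% did so.

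Most ratios between cluster miRNAs outside miR-532 changed less. Over the 45 pairs of these 10 miRNAs the median absolute log2 change of the ratio was 0.24 and the largest was 0.539, for miR-188-3p and miR-500a-3p. The ratios of the same 10 miRNAs to miR-532-5p changed by at least 0.58. Their ratios to miR-532-3p changed by at least 0.535 (miR-500a-3p), so with that reference the smallest lay just under the largest of the 45 pairs. These pairs share miRNAs and are given as a description. Reads of miR-660-5p per read of miR-362-3p were 1.04 and 1.03 after knockdown and 0.933 and 0.963 in controls. Reads of miR-501-3p per read of miR-362-3p were 0.243 and 0.236 after knockdown and 0.189 and 0.179 in controls, 1.30-fold higher, with no overlap.

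As a share of all reads of the cluster, the 2 arms of miR-532 made up 12.83% and 14.03% after knockdown and 20.29% and 21.59% in controls. The 95% Wilson intervals, which cover counting error only, were 12.2% to 13.5% and 13.4% to 14.7% after knockdown and 19.3% to 21.4% and 20.8% to 22.4% in controls. The intervals of the 2 libraries of a group overlapped, and those of different groups did not. The means were 13.4 ± 0.845% with knockdown and 20.9 ± 0.92% without (SD, n = 2; exact two-sided permutation p = 0.33, the smallest possible).

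The arms of each hairpin were then set against each other. miR-532-5p per miR-532-3p was 0.712 and 0.748 after knockdown and 0.662 and 0.854 in controls, so the groups overlapped, and the log2 change was -0.04 ± 0.15. miR-362-5p per miR-362-3p was 0.780 and 0.758 after knockdown and 0.781 and 0.785 in controls, a log2 change of -0.03 ± 0.13. For the 6 cluster hairpins with both arms tested, 0 arm ratios passed in the limma fit, and 0 had an unadjusted p under 0.05, while 12.8% of 109 hairpins passed, a share at which 0 of 6 says little about these hairpins. The largest change was that of miR-500a, 0.22 ± 0.17 (limma, adjusted p = 0.48). It had 4.05 and 3.18 reads of the 5p arm per read of the 3p arm after knockdown and 3.05 and 3.13 in controls. Its log2 change was 0.41 within guide RNA 1 and only 0.02 within guide RNA 2. The arm ratio of miR-660 went opposite ways within the 2 guide RNAs, by 0.30 and -0.32 on the log2 scale. No other tool was run on the arm ratios.

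**Figure D4:**
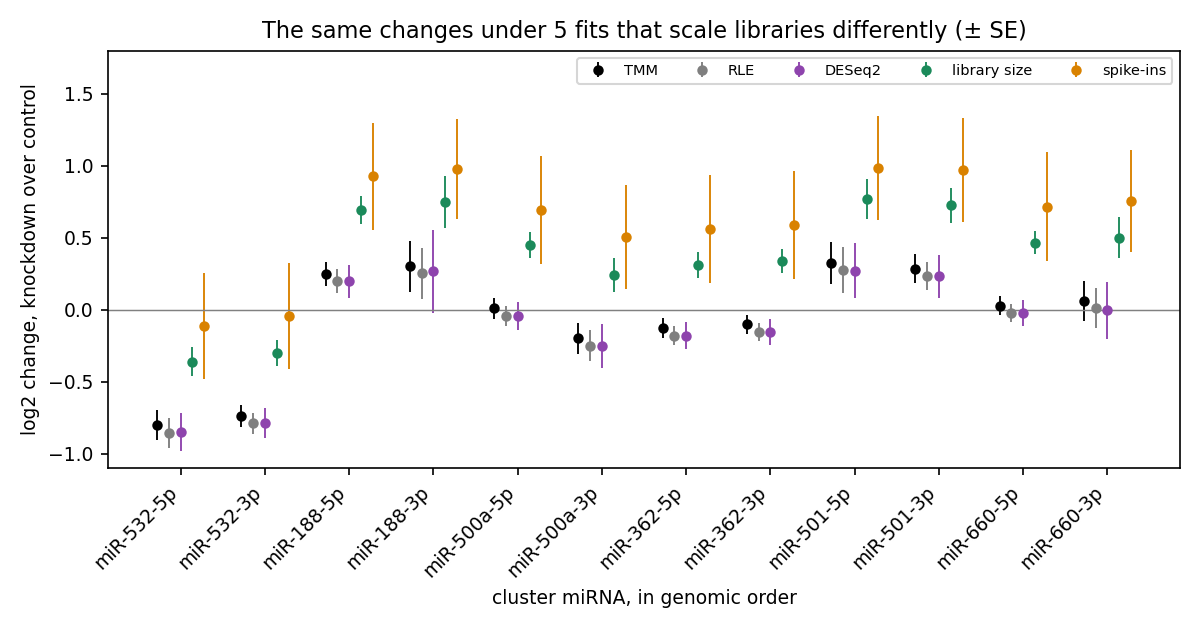
Log2 change of knockdown over control (± SE) of the 12 tested cluster miRNAs under TMM, RLE size factors, DESeq2, library size alone and spike-in scaling. The level of all points shifts with the scaling, from -0.85 with RLE to -0.11 with spike-ins for miR-532-5p, and both miR-532 arms are the lowest under each. Such a shift leaves the order of the points nearly unchanged.

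The scaling between libraries set the sign of several single changes in the cluster. A scaling moves all log2 fold changes by nearly the same amount, so it can hardly change their order. Both miR-532 arms had the lowest 2 values of the 12 cluster miRNAs in each of the 12 alternative fits. The fits that keep every library use the same counts, so their order adds little to that of the main fit. The distance from the higher miR-532 arm to the lowest other cluster miRNA was 0.54 on the log2 scale with TMM and with library size, 0.55 with spike-ins, and between 0.43 and 0.56 when a library was left out. Over all tested miRNAs the median log2 fold change with TMM was 0.06. Library size alone put this median 0.44 higher and the spike-ins put it 0.68 higher. With library size 9 of the 10 cluster miRNAs outside miR-532 rose and with spike-ins 4 did, namely both arms of miR-188 and of miR-501. Of all 464 tested miRNAs, 273 rose with library size and 186 with spike-ins.

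The 5 tested miRNAs outside the cluster whose levels over the 4 libraries were most like those of miR-532-5p were miR-92a-3p, miR-191-3p, miR-192-5p, miR-30b-3p and miR-425-5p. Likeness is the root mean square difference of centred log2 CPM, which was 0.05, 0.08, 0.08, 0.09 and 0.12 for these 5 and 0.13 for miR-532-3p, which would stand 15th among them. Their log2 fold changes ran from -0.70 to -0.90. These had to lie near that of miR-532-5p, because the 5 were picked by their levels in the same libraries. For comparison with other miRNAs that have a neighbouring hairpin, reads of miR-15a-5p per read of miR-16-5p were 0.207 and 0.205 after knockdown and 0.291 and 0.292 in controls. Reads of miR-451a per read of miR-144-3p were 1.29 and 1.42 after knockdown against 3.13 and 3.17. The ratio of miR-532-5p to miR-188-5p moved between these in size, 2.05-fold against 1.41-fold and 2.33-fold, but its libraries differed more from each other, at a lower read count. miR-16-5p has 2 hairpins, whose 3p arms have separate rows (miR-16-1-3p and miR-16-2-3p). Its ratio to miR-15a-5p is thus not that of 1 pair of neighbours. The differences in size between these ratios were not tested.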

How the data were processed

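Small-RNA libraries from gel-purified RNA (TRIzol, per the labels' protocols) were deposited as raw read counts, 1 whole number per mature miRNA and library, with no header. Not given in the sources used here are the authors' aligner, trimming, annotation, genome build and handling of reads that match several miRNAs. The tables hold 2368 rows, 2366 human and 2 spike-ins by name.

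The members and lists were chosen with earlier results of these data known. Counts without spike-ins were filtered with filterByExpr (minimum count 10, total 15) of edgeR 4.0.16 (R 4.3.3), leaving 464 miRNAs that hold 99.9% of the counts. Libraries were scaled by TMM, and the main test is edgeR's quasi-likelihood test between the groups, with no block. Calls are at a Benjamini-Hochberg adjusted p under 0.05 over all tested miRNAs. Within-guide values use log2 CPM with a prior count of 2. Ratios to miR-532-5p (463) and of 5p to 3p arms (109) were tested with limma 3.58.1 on log2 ratios with 0.5 added to each count. The named miRNAs are the members, the other miRNAs of the cluster with a row, the 5 of most similar pattern and 2 comparison pairs. Sequences come from RefSeq, positions from GENCODE 29, fold energies from RNAfold 2.7.2 and identities from Biopython 1.88. The tests were tested on simulated data with log2 changes of 0.5 and 1 in either direction. At 0.5, edgeR recovered 61.9%, the limma test of ratios to miR-532-5p 52.2% and that of arm ratios 50.3%. At 1 they recovered 87.7%, 86.4% and 84.7%. False calls averaged 2.17%, 5.55% and 0.83% of the calls. Smaller changes, such as many in this cluster, were not simulated. Alternatives were a guide RNA block, DESeq2 1.42.0, other scalings and filters, other ratio references, pseudocount 1 and leaving out each library. The crossed pairing was added after seeing the data.

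Same-numbered libraries are 1 polyclonal line (1 guide RNA), and this pairs the samples. Their deviations had a correlation of -0.11 across miRNAs. The 2 libraries of a group were not duplicates: their chi-square divided by its degrees of freedom was 3.93 (knockdown) and 10.1 (controls). Each guide RNA and condition has 1 culture, so p-values reflect only the spread among 4 libraries.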

Additional observations from a re-analysis of the deposited data

Results flagged for a closer look

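miR-500a-5p and miR-660-3p changed in opposite directions with the 2 guide RNAs, with 1 library per guide RNA and condition, so the differences were not tested. miR-660-3p was at -0.26 within guide RNA 1 and 0.34 within guide RNA 2, a difference of -0.60, with counting errors of 0.16 and 0.14 (SE). miR-500a-5p was at 0.08 and -0.05, a difference of 0.13, with counting errors of 0.07 and 0.06. Opposite signs were seen for 17.9% of the 464 tested miRNAs.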

How the results depend on the processing

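With guide RNA as a replicate block 116 miRNAs rose and 114 fell (119 and 117 without), and of the cluster calls only that of miR-501-3p was lost. With the crossed pairing, added after seeing the data, 123 rose and 118 fell. DESeq2 called 48 rises. Library size gave 273 rises and 41 falls, and spike-in scaling 186 and 8. Leaving out 1 library gave 48 to 84 rises and 68 to 111 falls, with 94 to 374 ratios to miR-532-5p that rose and 0 to 13 that fell (8 at an unadjusted p under 0.05 in limma where 0 passed, without knockdown replicate 1). The main count of ratios that fell was 10, and it was 6 with at least 10 CPM. Arm ratios that rose were 7, or 3 to 9 without 1 library, and those that fell 7, or 2 to 9. With no low-count filter limma called 0 either way of 349 (15 up and 18 down at an unadjusted p under 0.05). Values that changed sign were small in the main fit. For miR-500a-5p these were -0.041 with DESeq2 and with RLE, and -0.040 to 0.043 without 1 library (lowest without knockdown replicate 1; -0.022 without control replicate 1). miR-500a-3p was at 0.24 with library size and 0.51 with spike-ins, miR-362-5p at 0.31 and 0.56, and miR-362-3p at 0.34 and 0.59. miR-660-5p was at -0.022 with DESeq2 and with RLE. miR-660-3p was at -0.0045 with DESeq2 and ran from -0.16 (without control replicate 2) to 0.21 without 1 library. Leaving out 1 library, the log2 change of miR-532-3p per miR-532-5p ran from -0.14 to 0.23. The change of the 5p to 3p ratio then ran from -0.23 to 0.14 for miR-532, -0.18 to 0.029 for miR-188, -0.22 to 0.26 for miR-501 and -0.19 to 0.18 for miR-660. The cause of these changes was not tested. Low counts, such as the 39 reads of miR-188-3p in 1 control, limit what can be seen.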
